A study of Homo sapiens with 11 samples.

Results

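The genes described here were the IL6 family of cytokines with their receptors and the transcription factor that carries their signal. The members were the cytokines IL6, IL11 and LIF, the receptor genes IL6R, IL6ST, LIFR and OSMR, the signal transducer STAT3, its feedback inhibitor SOCS3, and CSF1, a growth factor of macrophages that belongs to another cytokine family. They were chosen by symbol, and all 10 were found among the 26485 gene symbols that the 24 h and 2 h count tables share.

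Most cytokines of the IL6 family signal through the shared chain that IL6ST encodes, and several of them first bind a receptor chain of their own. LIF uses the LIFR chain together with IL6ST, and oncostatin M uses OSMR or LIFR together with IL6ST. JAK kinases on these chains phosphorylate STAT3, which enters the nucleus and switches on genes such as SOCS3, and the SOCS3 protein then damps the receptor. Tumour cells can make IL6, LIF and CSF1 themselves, and in kidney cancer IL6 is known as a growth and inflammatory factor.

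The libraries were made from Caki-1-SR clone 1, a single clone of the human kidney cancer line Caki-1, taken from a skin metastasis, that is resistant to the receptor tyrosine kinase inhibitor sunitinib and is cultured in medium with 1 µM of it. The ODC groups were given for 24 h or 2 h the ruthenium complex Rapta-C at 2 µM, the EGFR kinase inhibitor erlotinib at 1 µM, the diabetes drug metformin at 1 µM and the plant lactone parthenolide, which damps inflammation, at 5 µM, and the CTRL groups did not receive the combination. The study calls its control untreated in one place and sham-treated in another. There were 3 CTRL and 3 ODC libraries at 24 h, and 2 CTRL and 3 ODC libraries at 2 h, and the labels of the time points carry different months, so time and month cannot be told apart.

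The 24 h libraries held 17785229 to 20882856 counts each, and the 2 h libraries 25782895 to 31118349. Replicate libraries differed by more than sampling noise, but the labels do not say that they came from separate cultures, so the p-values measure the spread between libraries, which may be technical. Of 8 markers of kidney epithelium, 6 were above 3 counts in every 24 h library, PAX2 and CA9 had no more than 1 count in each of them, and the summed level was 1540 to 1980 CPM (counts scaled to a common library size) in CTRL and 1279 to 1674 CPM in ODC. Of the 5 of these markers tested, 3 were lower and 2 higher in ODC. Keratins KRT8 and KRT18 had log2 fold changes of -0.62 and -0.71 (adjusted p = 0.202 and 0.128 by edgeR's quasi-likelihood test) and NDUFA4L2 -0.13, while PAX8 had 0.33 and CDH16 1.53 (adjusted p = 0.600 and 0.485 by edgeR). The immune markers PTPRC, CD3E, LYZ and MS4A1 had at most 3 counts in every 24 h library, while the summed level of all 6 immune markers, nearly all of it CD68, was 5.91 to 6.197 CPM in CTRL and 7.43 to 8.102 CPM in ODC, and CD14 had 1 to 3 counts in CTRL and 4 to 10 in ODC. Fibroblast markers summed to 67.7 to 144 CPM in CTRL and 115 to 169 CPM in ODC, and the 4 endothelial markers to at most 0.168 CPM. The part of these marker shifts in the results below was not tested. In bulk RNA, fewer cells of a kind and less RNA per cell cannot be told apart.

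At 2 h, CTRL replicate 1 stood apart. It held 971 counts of the collagen gene COL1A2, against at most 11 in the other 2 h libraries, with 73 counts of DCN and 65 of LUM, and its 5 fibroblast markers summed to 279 CPM against 136 to 166 CPM. It also held 100 counts of the epithelial marker EPCAM, against 19 to 27, and 13 of the immune marker LYZ, against 1 or 2. Its endothelial markers summed to 1.25 CPM, against 0.070 to 0.204 CPM. Its summed immune markers, at 16.1 CPM, lay within the 13.3 to 16.5 CPM of the other libraries. Log2 fold changes of the members at 2 h are therefore given with and without it.

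The members lie on 6 chromosomes of hg38 (GENCODE release 44). The cytokine genes were IL6 at chr7:22725884-22732002 on the plus strand, CSF1 at chr1:109910242-109930992 on the plus strand, LIF at chr22:30240453-30246759 on the minus strand and IL11 at chr19:55364382-55370463 on the minus strand. Among the receptors, LIFR (chr5:38474668-38608354, minus) and OSMR (chr5:38845858-38945596, plus) are neighbours, IL6ST lies further along the same chromosome (chr5:55935095-55995022, minus), and IL6R is at chr1:154405193-154469450 on the plus strand. STAT3 (chr17:42313324-42388540) and SOCS3 (chr17:78356778-78360077) are both on the minus strand of chromosome 17. Genes on the opposite strand overlap IL6 (STEAP1B and IL6-AS1), LIF, IL6R, IL6ST, LIFR (LIFR-AS1) and OSMR (RICTOR). The kit keeps strand, but the sources used here do not say whether the counting used it, so reads of these pairs may have been mixed. Processed copies of IL6R and IL6ST also exist elsewhere in the genome.

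Promoter sequence from RefSeq (GRCh38.p14) was matched for 8 of the 10 members, in 11 windows of up to 250 bases before a transcript start. CSF1 and LIF had no entry. Both strands of each window were searched for short motifs of factors that answer cytokines or stress, and the windows of members that hold one are printed, with the motif in capitals and positions counted back from the start. The NF-kB motif GGGNNTTTC was found in IL6 alone among the members, as GGGATTTTC from -73 to -65, and is in 4.16% of 35116 promoters. The AP-1 motif TGANTCA was found in IL11 alone, as TGAGTCA from -96 to -90, and is in 6.57% of promoters. The STAT motif GAS, TTCNNNGAA, was found in LIFR alone, in its windows from 2 different starts, as TTCCTTGAA from -165 to -157 and as TTCATCGAA from -182 to -174, and is in 6.57% of promoters. The second of these windows also holds the TATA motif TATAAA, on both strands with overlap, which is in 10.7% of promoters. The CRE motif TGACGTCA, in 1.65% of promoters, was in 0 of the 11 windows. The IL6 window is shown only to position -54, where annotated exon sequence begins.
IL6, chr7:22726950-22727146, plus strand: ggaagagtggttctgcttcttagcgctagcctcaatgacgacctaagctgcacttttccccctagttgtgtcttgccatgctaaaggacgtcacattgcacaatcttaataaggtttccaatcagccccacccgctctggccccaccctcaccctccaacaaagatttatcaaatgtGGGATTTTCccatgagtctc
IL11, chr19:55370464-55370713, minus strand: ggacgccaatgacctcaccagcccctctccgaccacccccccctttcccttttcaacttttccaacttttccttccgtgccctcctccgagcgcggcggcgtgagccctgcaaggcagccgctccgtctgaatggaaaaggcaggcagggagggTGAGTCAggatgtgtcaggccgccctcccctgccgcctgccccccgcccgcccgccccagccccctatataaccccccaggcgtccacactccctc
LIFR, chr5:38595406-38595655, minus strand: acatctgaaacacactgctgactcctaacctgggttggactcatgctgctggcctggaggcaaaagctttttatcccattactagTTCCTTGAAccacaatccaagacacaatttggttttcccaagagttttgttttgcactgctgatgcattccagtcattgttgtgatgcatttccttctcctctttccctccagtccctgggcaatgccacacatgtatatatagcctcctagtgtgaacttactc
LIFR, chr5:38557468-38557717, minus strand: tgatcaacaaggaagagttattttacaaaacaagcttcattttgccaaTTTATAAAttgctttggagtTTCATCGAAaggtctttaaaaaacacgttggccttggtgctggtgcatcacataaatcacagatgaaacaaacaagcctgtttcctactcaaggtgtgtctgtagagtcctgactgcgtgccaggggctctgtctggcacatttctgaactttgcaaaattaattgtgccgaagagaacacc

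The first question was whether 24 h of ODC went with other levels of these genes. At 24 h, IL6 and CSF1 were higher in ODC by 3.37-fold and 2.56-fold, LIFR was higher by 1.33-fold, and the other receptors, LIF, STAT3 and SOCS3 lay within 1.4-fold of CTRL. By the rule of an unadjusted p under 0.05 with at least a 2-fold change, 2 of the 10 members were called, IL6 and CSF1, against 2.35% of the 12689 genes tested. At an unadjusted p under 0.05 and any fold, 3 members were called, IL6, CSF1 and LIFR, against 12.2% of genes, and all 3 were higher, against 7.2% of genes called higher. The same 3 had every ODC library above every CTRL library, against 8.5% of genes. After Benjamini-Hochberg adjustment, 0 of the 10 members had p under 0.05 by edgeR's quasi-likelihood test, against 0.189% of genes, while edgeR's likelihood ratio test and DESeq2 each called 2, IL6 and CSF1, against 3.16% and 3.04% of genes.

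**Figure D1:**
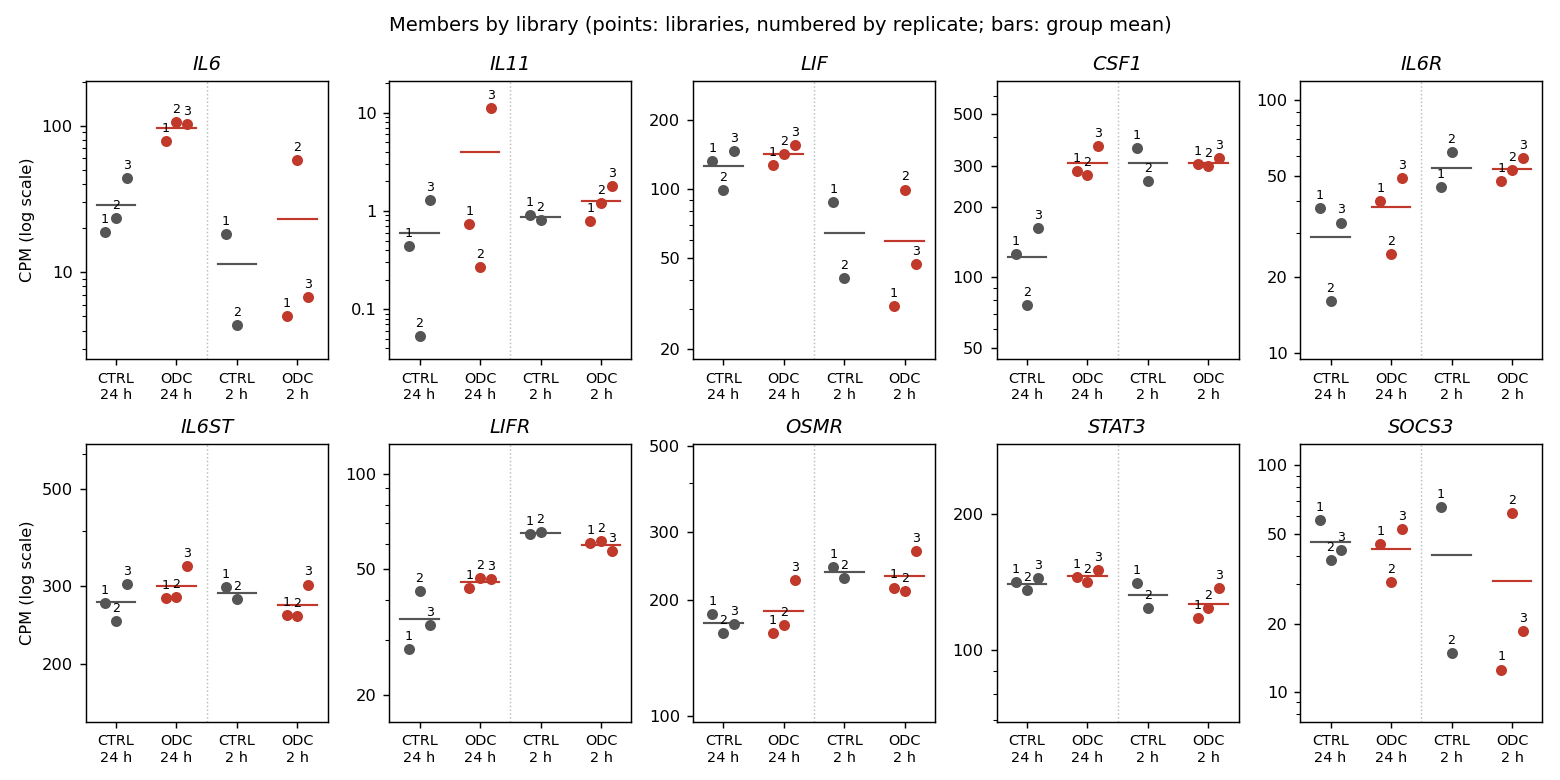
Level of each member in each of the 11 libraries, in CPM on a log axis, with CTRL in grey, ODC in red, replicate numbers beside the points and bars at the group means. The ODC points of IL6 (78.0 to 106 CPM) and CSF1 (274 to 366 CPM) lie above all CTRL points at 24 h, and IL6, LIF and SOCS3 are spread widely at 2 h.

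Among the ligands, IL6 stood at 18.9, 23.6 and 43.6 CPM in CTRL replicates 1 to 3 and at 78.0, 106 and 103 CPM in ODC replicates 1 to 3. The lowest ODC library lay above the highest CTRL library, and CTRL replicate 3 was the CTRL library nearest to ODC. The log2 fold change of IL6 was 1.75 ± 0.29 (SE; 95% interval 1.08 to 2.43), with adjusted p = 0.0859 by edgeR's quasi-likelihood test.

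CSF1, which drives the survival of macrophages through the receptor CSF1R, stood at 127, 76.0 and 163 CPM in CTRL and at 285, 274 and 366 CPM in ODC. The groups did not overlap, and CTRL replicate 2 was the lowest library. Its log2 fold change was 1.35 ± 0.26 (SE; 95% interval 0.76 to 1.94), with adjusted p = 0.0989 by the same edgeR test. CSF1R itself had 2 to 4 counts in each 24 h library, close to the floor of 3 counts.

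The 24 h libraries carry alternating numbers, and a fit that took CTRL and ODC libraries of adjacent numbers as pairs gave edgeR adjusted p = 0.00821 for IL6, 0.00830 for CSF1 and 0.0355 for IL11, against 5.41% of all genes with an adjusted p under 0.05 in that fit. The call after adjustment thus depends on the pairing, which the labels do not state. Without CTRL replicate 3, the CTRL library highest in IL6, the adjusted p of IL6 was 0.0139 in the unpaired edgeR fit. In that fit 0.0932% of genes passed an adjusted p of 0.05. Over all 17 alternatives, the largest edgeR adjusted p was 0.321 for IL6 and 0.379 for CSF1.

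IL11, a cytokine of stromal and epithelial cells, was nearly absent and uneven. It had 9, 1 and 23 counts in CTRL and 15, 5 and 226 counts in ODC, so that ODC replicate 3 alone was high, at 11.03 CPM against 0.053 to 1.29 CPM in the other 24 h libraries. Its log2 fold change of 2.78 ± 1.33 (SE; 95% interval -0.30 to 5.85) had adjusted p = 0.455 by edgeR, and without ODC replicate 3 it was -0.17.

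LIF, the ligand of LIFR, was the most abundant of the members per kilobase in CTRL at 24 h and differed little between the groups. Its levels were 133, 99.6 and 147 CPM in CTRL and 128, 143 and 156 CPM in ODC, and the groups overlapped. The fold of ODC over CTRL was 1.14, with a 95% interval of 0.891 to 1.45 and adjusted p = 0.688 by edgeR, so that a 2-fold change in either direction lay outside the interval.

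LIFR was the only receptor member with a p under 0.05 at 24 h. It stood at 28.1, 42.8 and 33.4 CPM in CTRL and at 43.7, 46.8 and 46.4 CPM in ODC, with all ODC libraries above CTRL and a gap of less than 1 CPM between CTRL replicate 2 and ODC replicate 1. The log2 fold change was 0.41 ± 0.16 (SE; 95% interval 0.049 to 0.77), with adjusted p = 0.338 by edgeR. Its unadjusted p no longer stayed under 0.05 when any one 24 h library other than CTRL replicate 2 was left out, with log2 fold changes of 0.27 to 0.44 in those fits. The antisense gene LIFR-AS1 had 4 to 18 counts in the 24 h libraries, against 575 to 951 for LIFR.

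The other receptor chains overlapped between the groups. IL6R, the chain that binds IL6, stood at 37.5, 16.2 and 32.9 CPM in CTRL and at 39.8, 24.6 and 49.1 CPM in ODC, and replicate 2 was the lowest library of both groups. Its fold was 1.32 with a wide 95% interval of 0.776 to 2.26. With adjacent libraries as pairs its log2 fold change of 0.43 passed an unadjusted p under 0.05, with adjusted p = 0.0870 by edgeR. In that fit 5.41% of all genes had an adjusted p under 0.05, and the share at the unadjusted p was not counted. IL6R, IL6ST and LIFR were each higher in ODC in 3 of 3 such pairs, and OSMR was not. STAT3, with a fold of only 1.05, was also higher in 3 of 3 pairs. The share of all genes that were so was not counted, so nothing particular to these receptors is read from it. The shared chain IL6ST was the most counted member in CTRL, at 274, 251 and 303 CPM, and stood at 282, 284 and 333 CPM in ODC, a fold of 1.10 (0.923 to 1.31). OSMR stood at 183, 164 and 173 CPM in CTRL and at 164, 172 and 225 CPM in ODC, a fold of 1.09 (0.887 to 1.34). The adjusted p of these 3 genes was 0.690, 0.680 and 0.768 by edgeR.

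STAT3 had the smallest standard error of the members at 24 h, 0.083 on the log2 scale. It stood at 142, 136 and 144 CPM in CTRL and at 146, 141 and 151 CPM in ODC, a fold of 1.05 with a 95% interval of 0.920 to 1.199 and adjusted p = 0.799 by edgeR. SOCS3, the gene STAT3 induces to limit its own signal, stood at 57.2, 38.1 and 42.5 CPM in CTRL and at 45.2, 30.7 and 52.7 CPM in ODC. Its fold was 0.942, with a 95% interval of 0.665 to 1.33 and adjusted p = 0.917 by edgeR, and its sign turned when CTRL replicate 1 or ODC replicate 2 was left out. RNA levels of STAT3 do not show how much of the protein was phosphorylated.

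**Figure D2:**
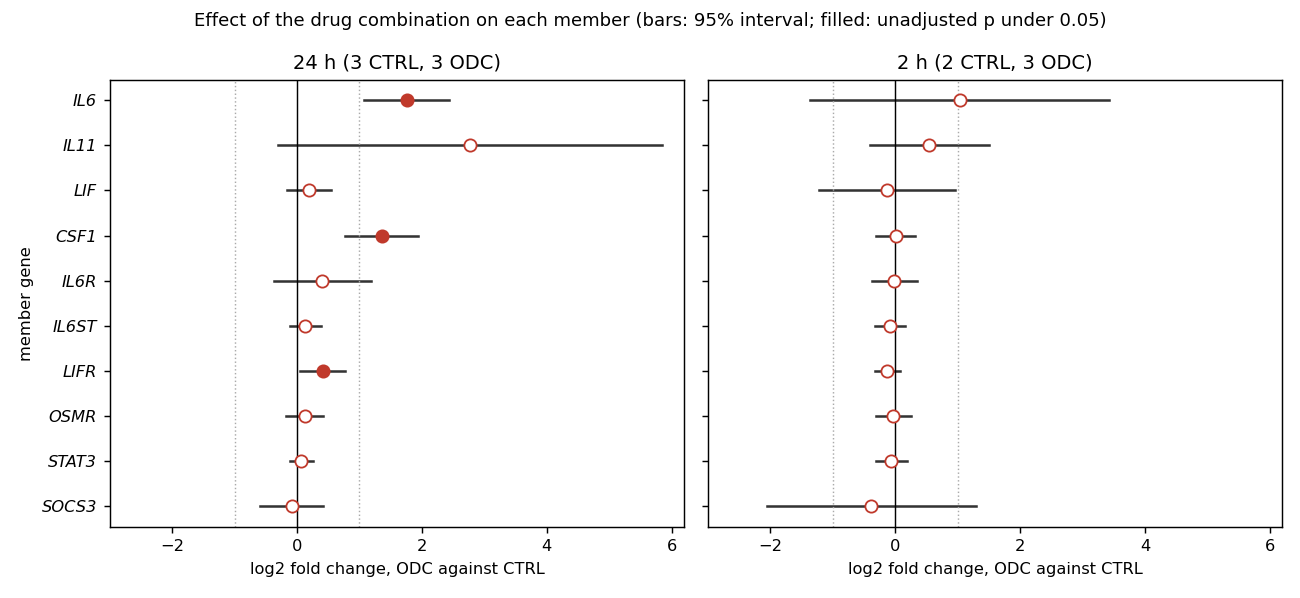
Log2 fold change of ODC against CTRL for the 10 members at 24 h (left) and at 2 h (right), with 95% intervals as bars, filled points for an unadjusted p under 0.05 and dotted lines at a 2-fold change. IL6, CSF1 and LIFR are filled at 24 h, at 1.75, 1.35 and 0.41, and no member is filled at 2 h.

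By role, the 4 ligands had a median log2 fold change of 1.55 at 24 h, the 4 receptors 0.27, and STAT3 with SOCS3 -0.0080. Without ODC replicate 3 the median of the ligands was 0.67 and that of the receptors 0.12, and without CTRL replicate 2 they were 1.37 and 0.10. Over all 10 members, 9 were higher and 1 was lower, and their median was 0.30 against 0.00089 over all genes tested.

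Levels per kilobase were taken over all annotated exons of a gene together. This length can exceed that of the transcript expressed, so the order of different genes is only approximate. By this measure LIF led in CTRL at 24 h with 32.7 ± 6.31 CPM per kb (SD, n = 3). It was followed by OSMR at 24.2 ± 1.35, CSF1 at 23.3 ± 8.36 and IL6ST at 22.9 ± 2.17 CPM per kb, 3 genes whose ranges overlapped. The range of CSF1, 14.5 to 31.2 CPM per kb, also overlapped those of LIF above it and SOCS3 below it. SOCS3 (16.8), STAT3 (12.5), IL6 (6.64), IL6R (4.12), LIFR (2.86) and IL11 (0.222 CPM per kb) came next, where SOCS3 just overlapped with IL6ST, IL6 with IL6R and IL6R with LIFR. In ODC at 24 h, CSF1 led with 58.9 ± 9.59 CPM per kb (SD, n = 3), above LIF at 36.8 ± 3.69 without overlap. IL6 stood between IL6ST and SOCS3 there, at 22.1 ± 3.56 CPM per kb, and its range overlapped those of IL6ST (24.8 ± 2.43) and SOCS3 (15.7 ± 4.09 CPM per kb).

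The rest of the pathway was described from a list of 62 other genes, of which 46 were tested at 24 h. Of these, 29 were higher and 17 lower in ODC, 9 were higher and 3 lower at an unadjusted p under 0.05, against 12.2% of all genes in either direction and 7.2% higher, and 0 had an edgeR adjusted p under 0.05. The median log2 fold change was 0.11.

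Other ligands and receptors of the family were few. Of 8 other ligands, 3 were tested and 2 had p under 0.05, CLCF1, another cytokine of the family, and EBI3, a subunit shared by IL27 and IL35. CLCF1 stood at 20.7 to 22.2 CPM in CTRL and 28.0 to 30.9 CPM in ODC, a log2 fold change of 0.48 ± 0.11 (SE; adjusted p = 0.130 by edgeR). EBI3 had 8 to 13 counts in CTRL and 24 to 42 counts in ODC, a log2 fold change of 1.51 ± 0.35 (SE; adjusted p = 0.146 by edgeR). Both genes had every ODC library above every CTRL library, as did 8.5% of all genes tested. Of 5 other receptors, 3 were tested and IL31RA, which pairs with OSMR to bind IL31, was lower, at 16.2 to 24.4 CPM in CTRL and 9.29 to 11.8 CPM in ODC. Its log2 fold change was -0.94 ± 0.19 (SE; adjusted p = 0.108 by edgeR).

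Of the 4 JAK kinases, 3 were higher and 1 lower and 0 had an edgeR p under 0.05. Of 5 other STAT genes tested, 3 were higher and 2 lower, and only STAT4, a factor of IL12 signalling in lymphocytes, passed that p, from 3 to 12 counts in CTRL and 11 to 49 counts in ODC. Its log2 fold change was 2.15 ± 0.66 (SE; adjusted p = 0.246 by edgeR), and its groups overlapped. Of 14 negative regulators tested, 7 were higher and 7 lower, and PIAS3, an inhibitor of STAT3, passed p with a log2 fold change of 0.28 ± 0.091 (SE; adjusted p = 0.267 by edgeR). ADAM17, a protease that sheds the IL6 receptor, was higher by 0.32 ± 0.099 on the log2 scale (SE; adjusted p = 0.256 by edgeR), at 90.8 to 98.3 CPM in CTRL and 108 to 129 CPM in ODC.

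Known STAT3 targets differed in both directions. Of 22 listed, 15 were tested at 24 h, 9 were higher and 6 lower, 4 were higher and 2 lower at p under 0.05, and the median was 0.11. The acute phase gene SAA1 stood at 140, 181 and 470 CPM in CTRL and 587, 658 and 603 CPM in ODC, a log2 fold change of 1.24 ± 0.40 (SE; adjusted p = 0.265 by edgeR), and CTRL replicate 3, the CTRL library highest in IL6, was also highest in SAA1. SAA2, a near-identical copy that may share reads with it, had a log2 fold change of 1.72. CEBPD, a transcription factor of the acute phase response, stood at 5.03 to 7.26 CPM in CTRL and 9.18 to 12.8 CPM in ODC, a log2 fold change of 0.92 ± 0.21 (SE; adjusted p = 0.139 by edgeR). The fibrinogen chain genes went the other way. FGB stood at 15.5 to 21.7 CPM in CTRL and 4.15 to 8.13 CPM in ODC, with a log2 fold change of -1.57 ± 0.26 (SE; adjusted p = 0.0733 by edgeR). FGA had 48 to 99 counts in CTRL and 7 to 21 counts in ODC, with a log2 fold change of -2.30 ± 0.46 (SE; adjusted p = 0.108 by edgeR). For both fibrinogen genes every ODC library lay below every CTRL library, and the share of all genes that lay so was not counted.

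**Figure D3:**
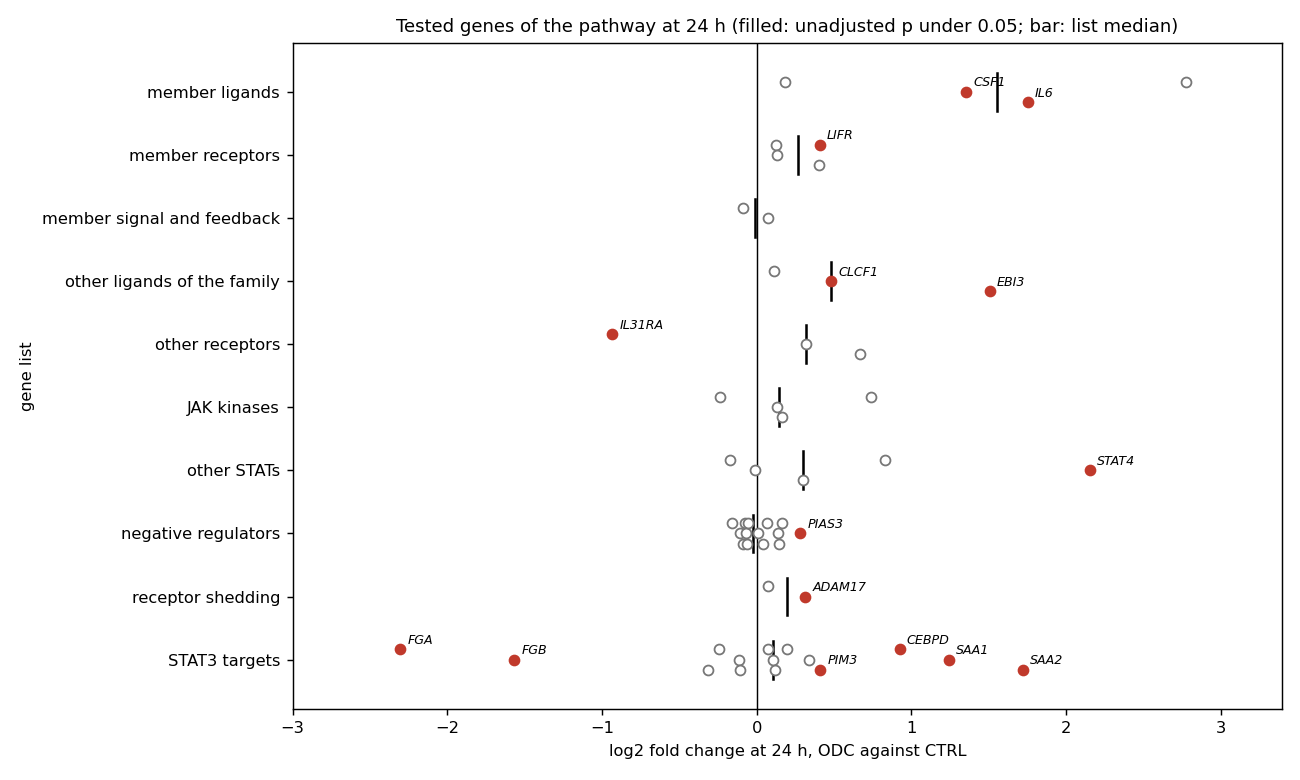
Log2 fold change at 24 h of each tested member and pathway gene (points), by gene list, with bars at the list medians and filled, named points for an unadjusted p under 0.05. The STAT3 targets reach from -2.30 for FGA to 1.72 for SAA2 around a median of 0.11, and the negative regulators stay close to 0.

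The second question was whether the members differed after 2 h. At 2 h, 0 of the 10 members passed an unadjusted p under 0.05 with a 2-fold change by edgeR's quasi-likelihood test, against 0.308% of the 13332 genes tested. At any fold, 0 members had p under 0.05, against 2.34% of genes, and 0 had an adjusted p under 0.05, against 0% of genes, with 0 members also by the likelihood ratio test and by DESeq2, which called 0.0375% and 0.0075% of genes. The median of the members was -0.048, and 3 were higher and 7 lower.

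CSF1 overlapped between the groups at 2 h, at 357 and 260 CPM in CTRL and 307, 301 and 324 CPM in ODC. The fold was 1.00, with a 95% interval of 0.809 to 1.25. Without CTRL replicate 1 it was 0.26 on the log2 scale, with an unadjusted p under 0.05 and adjusted p = 0.999 by edgeR, and without CTRL replicate 2 it was -0.20. LIFR stood at 64.7 and 65.5 CPM in CTRL and at 60.7, 61.2 and 57.0 CPM in ODC, with a fold of 0.916 (95% interval 0.795 to 1.06). Without CTRL replicate 1 its log2 fold change was -0.13, as with it. STAT3, IL6ST, OSMR and IL6R had folds of 0.955, 0.940, 0.980 and 0.989, each with a 95% interval between 0.772 and 1.27. Their log2 fold changes were -0.067, -0.089, -0.030 and -0.016, and without CTRL replicate 1 they were 0.039, -0.036, 0.028 and -0.22. IL11 had 24 and 23 counts in CTRL and 25, 37 and 53 counts in ODC, a log2 fold change of 0.54 ± 0.41 (SE), or 0.64 without CTRL replicate 1.

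IL6, LIF and SOCS3 varied more between replicates than between the groups at 2 h. IL6 stood at 18.4 and 4.35 CPM in CTRL and at 5.06, 57.9 and 6.76 CPM in ODC. LIF stood at 87.8 and 41.0 CPM in CTRL and at 30.8, 99.7 and 47.0 CPM in ODC. SOCS3 stood at 65.6 and 14.9 CPM in CTRL and at 12.6, 61.6 and 18.6 CPM in ODC. In all 3 genes CTRL replicate 1 and ODC replicate 2 were the high libraries, 1 in each group, while the other 3 libraries lay close together.

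The log2 fold changes at 2 h were 1.03 ± 1.04 (SE) for IL6, -0.13 ± 0.47 for LIF and -0.39 ± 0.73 for SOCS3, and with edgeR the adjusted p was 1.00 for each. With both high libraries left out they were 0.44, -0.076 and 0.069. With CTRL replicate 1 alone left out they were 2.42, 0.53 and 1.06, so the sign of LIF and SOCS3 turned, and with ODC replicate 2 alone left out they were -0.94, -0.73 and -1.37. These 3 values at 2 h therefore rest on single libraries.

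The genes that shared this pattern were counted. CTRL replicate 1 exceeded CTRL replicate 2 at least 2-fold in 4.27% of the 13332 genes, ODC replicate 2 exceeded both other ODC libraries at least 2-fold in 0.728%, and both held for 45 genes, or 0.338%, among them 3 members, IL6, LIF and SOCS3. IL6 was 4.22 times as high in CTRL replicate 1 as in CTRL replicate 2, and 11.4 and 8.57 times as high in ODC replicate 2 as in ODC replicates 1 and 3. The early response gene EGR1 and the NF-kB target TNF, looked up after their values were seen, followed it, with ratios of 20.1, 40.8 and 24.2 for EGR1 and 5.24, 12.9 and 11.9 for TNF. Of 7 early response genes looked up, 3 had all 3 ratios at 2 or more (FOS, EGR1 and JUN), and so did 4 of 6 NF-kB targets (TNF, CXCL1, CXCL2 and CSF2). ATF3 did not follow, with ratios of 0.208, 1.02 and 0.717, and FOSB had 2.09, 2.12 and 1.07. The receptors and STAT3 had ratios between 0.722 and 1.14.

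**Figure D4:**
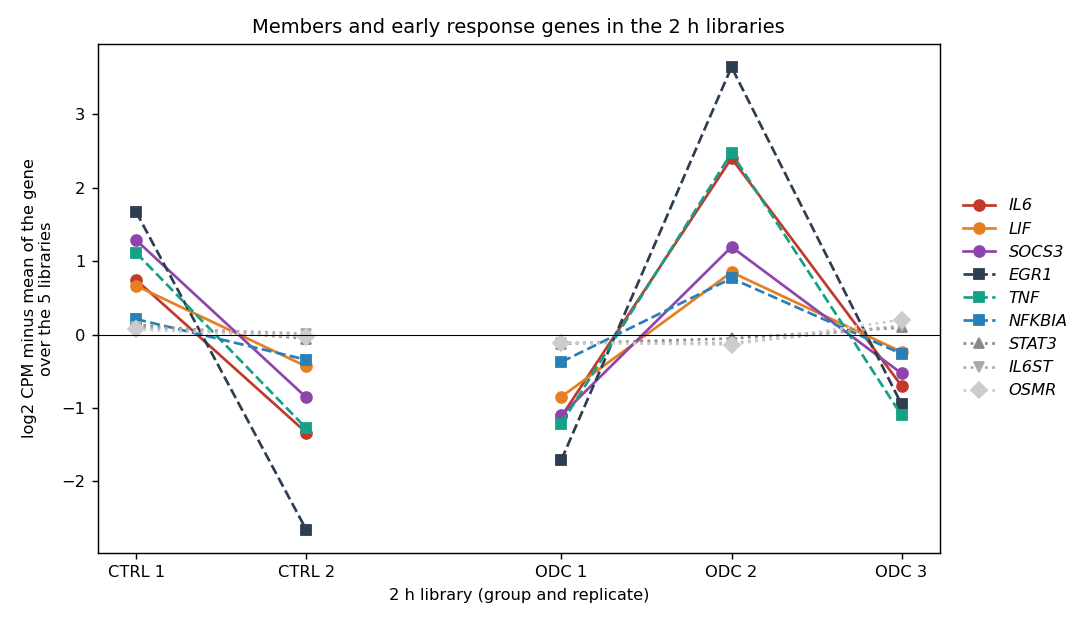
Log2 CPM of each gene in the 5 libraries at 2 h minus the mean of that gene over the 5 libraries, for 3 members with solid lines, 3 early response or NF-kB genes with dashed lines and 3 further members with dotted grey lines. IL6, LIF and SOCS3 are high together with EGR1, TNF and NFKBIA in CTRL replicate 1 and ODC replicate 2, while STAT3, IL6ST and OSMR stay near 0.

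Across all 11 libraries, with the mean of each time point removed, the genes most like IL6 among 13332 were TNF (Pearson r = 0.978), NFKBIA (0.955), CXCL2 (0.947), TNFAIP3 (0.921) and ZC3H12A (0.920), given as a description over libraries that share depth and the 2 high libraries at 2 h. The difference between ODC and CTRL was not removed and entered these correlations. The 24 h effects of the same genes are therefore no separate result. At 24 h, NFKBIA, an inhibitor that NF-kB induces, stood at 28.5 to 39.8 CPM in CTRL and 54.9 to 72.2 CPM in ODC, a log2 fold change of 0.93 ± 0.17 (SE; adjusted p = 0.0982 by edgeR), TNF had 2.06 ± 0.56 (adjusted p = 0.191) and TNFAIP3 0.55 ± 0.34 (adjusted p = 0.570). Of the other NF-kB targets looked up, CXCL2 had 1.13, CXCL1 0.48 and CSF2 0.56 (adjusted p = 0.158, 0.803 and 0.706 by edgeR). EGR1 stood at 19.1 to 42.4 CPM in CTRL and 2.49 to 7.70 CPM in ODC at 24 h, with a log2 fold change of -2.26 ± 0.45 (SE; adjusted p = 0.107 by edgeR). EGR1 and IL6 thus differed in opposite directions at 24 h, whereas they were high in the same libraries at 2 h. The other early response genes looked up were mixed at 24 h. ATF3, DUSP1, FOS and FOSB had log2 fold changes of 1.73, 1.11, 0.54 and 0.49, while JUN and IER2 had -0.12 and -0.48.

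The third question was whether the effect of ODC differed between 24 h and 2 h, and it was tested as a contrast over all 11 libraries. At an unadjusted p under 0.05, 2 members differed, CSF1 and LIFR, against 5.93% of 13333 genes, and after adjustment 0 did by edgeR's quasi-likelihood test, against 0.015% of genes, while the likelihood ratio test and DESeq2 each called 1, CSF1, against 0.278% and 0.27% of genes. For CSF1 the effect at 24 h exceeded that at 2 h by 1.33 ± 0.34 on the log2 scale (SE; 95% interval 0.60 to 2.06), with adjusted p = 0.503 by edgeR. For LIFR the difference was 0.52 ± 0.19 (SE; 95% interval 0.099 to 0.94), with adjusted p = 0.703 by edgeR. For IL6 it was 0.70 ± 1.16 (SE; 95% interval -1.84 to 3.24), so the higher IL6 at 24 h was not shown to be specific to that time. This value rested on single 2 h libraries. It was -0.68 without CTRL replicate 1, 1.396 without CTRL replicate 2 and 2.68 without ODC replicate 2, with an unadjusted p under 0.05 only in the last of these, and 1.29 with such a p when both high libraries were left out. It was 0.23 without ODC replicate 1 and 0.26 without ODC replicate 3. Without CTRL replicate 1 at 2 h the difference was 1.08 for CSF1 and 0.53 for LIFR, both with an unadjusted p under 0.05, and for LIFR that p was lost without CTRL replicate 2 (0.50) and without both high libraries (0.54).

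Side by side, CSF1 in ODC at 24 h (274 to 366 CPM) overlapped with both groups at 2 h (260 to 357 CPM), and it was CTRL at 24 h (76.0 to 163 CPM) that lay lower. LIFR was at 57.0 to 65.5 CPM in the 2 h libraries, 43.7 to 46.8 CPM in ODC at 24 h and 28.1 to 42.8 CPM in CTRL at 24 h. IL6 in ODC at 24 h, in contrast, was above every other library of the series, 78.0 CPM or more against at most 57.9 CPM. These levels are set across months and were not tested.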

How the data were processed

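Stranded mRNA libraries of Caki-1-SR clone 1 were sequenced as single-end reads. The authors aligned the reads to hg38 with STAR and counted them per gene with HTSeq, and deposited these raw read counts in 2 tables without normalization. The submitters' processing notes name STAR 2.7.0f, HTSeq 0.9.1 and edgeR 3.26.8, while the study's methods name other versions of STAR and edgeR. From the deposited counts, ODC was compared with CTRL separately at 24 h and 2 h with edgeR 4.0.16 in R 4.3.3 (earlier quasi-likelihood F test, TMM scaling, filterByExpr set to a count of 10 and a total of 15), and the difference between the times in 1 fit of all 11 libraries. All tests were two-sided, and p-values were adjusted by Benjamini-Hochberg over every gene tested. All 10 members passed the filter. CPM values used TMM factors over all 11 libraries, and levels per kb were divided by the union exon length. A level of 3 counts was taken as the floor, 0.0964 to 0.169 CPM, and covers counting error only. The scripts were tested on simulated data.

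The members and gene lists were chosen with earlier results of these data known, and support nothing by their choice. All members were named, and of the pathway list the genes with p under 0.05, at most 10 per time with the smallest p. At 24 h there were 12 of these, and beyond the 10, SAA2 was named as the copy of SAA1 and PIM3 is only plotted. At 2 h, BCL3 (log2 fold change 0.43, adjusted p = 1.00 by edgeR) and CEBPB (0.34, adjusted p = 1.00) were the 2 such genes among 47 tested, against 2.34% of all genes. Both values are given only with CTRL replicate 1. CEBPB stood at 20.5 CPM in that library, 28.4 CPM in CTRL replicate 2 and 29.2 to 32.2 CPM in ODC. BCL3 stood at 54.5 CPM in both CTRL libraries and 63.5 to 80.2 CPM in ODC. The early response and NF-kB genes, and the fits without both high libraries at 2 h, were added after seeing the data. Alternatives covered filters, scalings, tests (DESeq2 1.42.0 among them), a joint fit, each library left out, and pairs of adjacent library numbers at 24 h. The labels do not give these pairs. Within them, the libraries' deviations from their group mean had correlations of 0.197, 0.581 and 0.443. Figures were drawn with matplotlib 3.10.9.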

Additional observations from a re-analysis of the deposited data

How the results depend on the processing

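IL6 and CSF1 kept p under 0.05 and a 2-fold higher level in ODC at 24 h under all 17 alternatives (log2 fold changes of 1.52 to 2.19 and 1.10 to 1.62), and 2 or 3 members were called by that rule, with IL11 as the third. The largest unadjusted p of these fits was 0.0463 for IL6, close to the limit, and 0.00351 for CSF1, both by edgeR. Their largest adjusted p was 0.321 and 0.379. No member passed the adjusted p at 24 h in the reported fit. It was 2 when all genes with a count of 1 or more were tested, 2 by the likelihood ratio test, 2 by DESeq2, 1 in the joint fit of all libraries, 3 with adjacent libraries paired, and 0 to 1 with 1 library left out. The share of all genes past it moved too, from 0.189% to 0.522%, 3.16%, 3.04%, 1.4% and 5.41% in the first 5 of these. With 1 ODC library left out, the members with an edgeR p under 0.05 and a 2-fold change at 2 h numbered 0 to 1. SOCS3 was called without ODC replicate 2, as were 68 of 13214 genes, against 41 of 13332 in the reported fit. That fit kept CTRL replicate 1, the 2 h library highest in SOCS3. The members whose effect differed between the times numbered 1 by the likelihood ratio test and 1 by DESeq2. No paired analysis was possible at 2 h because the groups hold 2 and 3 libraries with no shared numbers. IL11 was not tested at 24 h with a filter of more than 1 CPM, and DESeq2 gave no p for the difference of IL6 between the times. The cause of these changes was not tested.

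No direction of IL6, CSF1 or LIFR turned at 24 h. With 1 library left out, the log2 fold change at 24 h ran from -0.17 to 3.97 for IL11, -0.023 to 0.21 for OSMR and -0.25 to 0.096 for SOCS3. At 2 h it ran from -0.20 to 0.26 for CSF1, -0.94 to 2.42 for IL6, -0.22 to 0.24 for IL6R, -0.73 to 0.53 for LIF, -0.15 to 0.034 for OSMR, -1.37 to 1.06 for SOCS3 and -0.15 to 0.039 for STAT3. The difference between the times ran from -0.74 to 3.43 for IL11, -0.68 to 2.68 for IL6, -0.36 to 0.90 for LIF, -0.017 to 0.25 for OSMR and -1.16 to 1.27 for SOCS3. Without CTRL replicate 1 and ODC replicate 2 at 2 h, OSMR was at 0.081, SOCS3 at 0.069 and STAT3 at 0.046, and the difference of SOCS3 between the times at -0.18. With 2 or 3 libraries a group, the intervals at 2 h leave changes of IL6, LIF and SOCS3 undetermined. The value of IL11 at 24 h rests on ODC replicate 3.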
